A study of Glycine max with 48 samples.

Results

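The genes described here are 104 soybean genes whose RNA was high in both parts of the unstressed pistil, the ovary and the stigma, and low in the sepal and the anther. They were chosen from 55897 genes with a GLYMA_ identifier (0.186%), using the control libraries alone. A gene was kept when its mean FPKM (a level corrected for gene length and for the size of the library) was 5 or more in both pistil organs. Its mean plus 1 also had to be at least 8 times that of sepal and of anther, with ovary and stigma less than 4-fold apart. The pistil is the female organ of the flower: the stigma receives pollen and supports its germination, and the ovary encloses the ovules that are fertilised and become seeds. Pollen tubes grow from the stigma towards the ovules, so the pistil organs serve successive steps of one process. Seed set of legumes is known to be sensitive to heat and drought at flowering.

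Plants of the cultivar Magellan were grown until their first open flowers and then divided over 4 growth chambers. Day and night temperatures were 28 °C and 24 °C for control plants, which were given 100% of the transpirable water, and water-deficit plants were given 30% of it at the same temperatures. In heat stress the day reached 38 °C and the night 28 °C at full watering, and combined stress joined that heat to the 30% watering. Sepal, anther, ovary and stigma were each sampled under the 4 treatments in 3 libraries, 48 libraries in all, each from a pool of about 10 to 15 flowers of 8 to 10 plants. The labels do not say which chamber held which plants, so effects of chamber and of treatment cannot be told apart. In such whole-organ RNA, fewer cells of a type and less RNA per cell cannot be told apart either.

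None of the 57147 identifiers in the files could be paired with a gene name or description in the annotation used here (0 matched), so the genes are given by identifier and only a few are named. The files hold no read totals. Relative depth, read from the smallest steps between low values, differed by up to 1.54-fold among ovary libraries and up to 1.45-fold among stigma libraries. Replicates of the pistil groups resembled each other closely, with a lowest Pearson correlation across genes of 0.971 on the log2 scale. The 4 organs were deposited as separate files, which limits any level set across organs.

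In the control libraries the median gene of the 104 stood at 64.3 FPKM in ovary (range of gene means 12.1 to 3866) and at 59.8 FPKM in stigma (10.8 to 3389). The same genes had medians of 3.24 FPKM in sepal and 2.07 FPKM in anther. These values chose the genes and describe them without a test. The ovary mean was the higher in 70 genes and the stigma mean in 34, and for 94 of the 104 genes the organs lay within 2-fold of each other. Levels of 100 FPKM or more in both organs were held by 29 genes, while 22 were under 20 FPKM in the lower organ. Of the 104, 9 were listed at 0 in all control sepal libraries and 8 in all control anther libraries.

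Just inside the limit on the fold over sepal and anther was GLYMA_13G317600, with a smaller fold of 8.17, and just outside was GLYMA_10G242300 with 7.98. For the ovary to stigma ratio the nearest gene inside was GLYMA_19G013000 at 3.20 and the nearest outside was GLYMA_04G204900 at 5.95. The minimum of 5 FPKM could exclude no gene, because the fold limit on the mean plus 1 already asks for a higher level. The lowest member was GLYMA_08G289300 at 10.8 FPKM in stigma. One control sepal library stood apart: 93 of the 104 genes were highest in sepal replicate 3, and the median gene was at 0.795, 3.00 and 6.32 FPKM in control sepal replicates 1, 2 and 3. Genes high in anther alone also took most there, 2.17% of the summed FPKM against 0.316% and 0.499% in replicates 1 and 2. Without that library 184 genes met the rule, all 104 among them, and under combined stress 120 of the 184 were called against control in ovary and 110 in stigma. Of all genes tested, 16.5% were called lower and 11% higher in ovary, and 14.9% and 11.1% in stigma. The 184 were also chosen on control libraries, which favours a fall from control. The identifiers of the 104 carry 20 different chromosome numbers, with at most 11 genes on one of them, and 10 pairs of members have identifiers close to each other on the same chromosome. Whether such neighbours are similar copies that share reads was not tested.

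The level of the 104 genes in pistil was lower under every stress, and in stigma it was lowest under combined stress. In ovary they made up 3.54% ± 0.208 of all summed FPKM in control libraries (SD, n = 3 throughout). Their share was 3.05% ± 0.193 with water deficit, 2.46% ± 0.113 with heat and 2.53% ± 0.160 with both. In stigma the shares were 3.22% ± 0.122, 2.65% ± 0.113, 2.53% ± 0.125 and 2.22% ± 0.257 in the same order. The median gene of the set stood at 35.9 FPKM in ovary under heat and at 34.9 with both stresses, and in stigma at 39.2 and 31.5. The plot of levels by library shows that the ovary libraries of these treatments overlapped, whereas all 3 stigma libraries with both stresses lay below the 3 with heat alone.

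**Figure D1:**
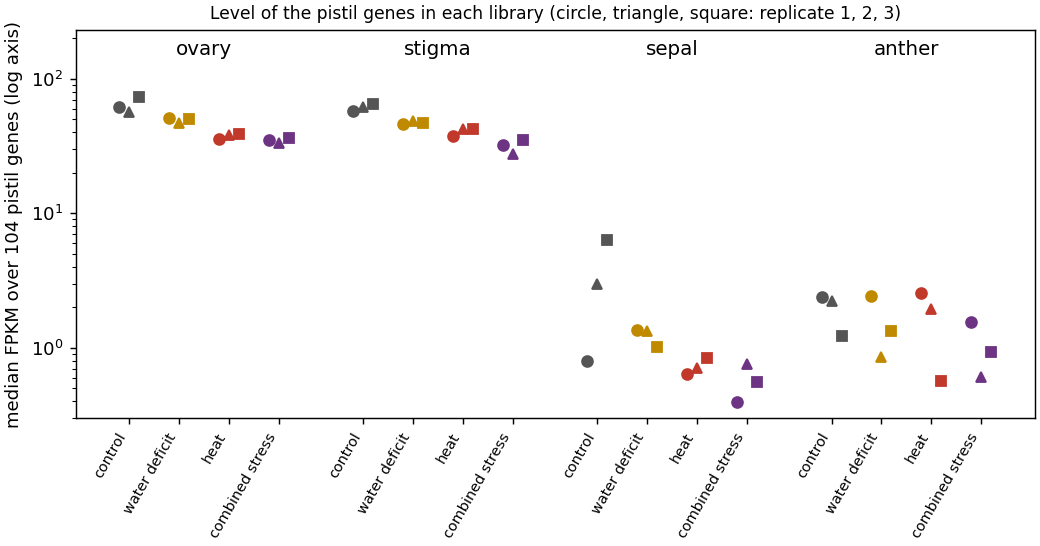
Median FPKM over the 104 pistil genes in each of the 48 libraries (log axis), by organ and treatment, with the symbol giving the replicate. Ovary and stigma medians lie far above those of sepal and anther in every treatment, and control sepal spreads from 0.795 to 6.32 FPKM between its 3 libraries.

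Because the rule asked for a high control level in pistil, a fall from control is favoured by the choice of the genes. Contrasts between stressed groups do not use the control libraries, and genes chosen by the same rule in the water-deficit libraries give counts against control that do not share the choice. Such counts are given for heat and combined stress. Against water deficit these 174 genes share the water-deficit libraries with their own rule, so that no choice free of both groups was at hand for water deficit against control. All tests were limma's moderated test on log2(FPKM + 1), fitted to the whole table of an organ, with Benjamini-Hochberg adjustment over all genes tested and a threshold of 0.05 for the adjusted p. Fold changes are on that scale, which understates changes of low genes.

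Under combined stress most of the 104 genes fell in both organs. In ovary 68 fell and 3 rose, where 16.5% of all genes were called lower and 11% higher. In stigma 60 fell and 5 rose, where 14.9% of all genes were called lower and 11.1% higher. The median log2 fold change of the 104 was −0.82 in ovary and −0.82 in stigma, while the median of all genes tested was −0.02 and −0.01. Lower calls in both organs were made for 55 genes, in ovary alone for 11 and in stigma alone for 5. How the calls of all genes overlap between the organs was not counted. The log2 fold change was −1 or lower for 44 of the 104 in ovary and for 45 in stigma. Of 174 genes chosen in the water-deficit libraries instead, 93 fell and 15 rose in ovary, and 86 fell and 12 rose in stigma. Their median log2 fold changes were smaller, at −0.52 in ovary and −0.53 in stigma.

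Heat alone lowered more of the genes in ovary than in stigma, at the same threshold in separate fits. In ovary 60 of the 104 fell and 1 rose, with 10.8% of all genes called lower and 5.99% higher. In stigma 33 fell and 2 rose, with 7.16% of all genes called lower and 6.77% higher. The median log2 fold change was −0.79 in ovary and −0.41 in stigma. Lower calls were shared by 30 genes, a further 30 were called lower in ovary alone and 3 in stigma alone. The overlap of calls over all genes was not counted, and more of all genes were called lower in ovary too. Among the 174 genes chosen under water deficit, 81 fell and 8 rose in ovary, and 37 fell and 12 rose in stigma. Their medians were again smaller, at −0.42 in ovary and −0.19 in stigma.

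Water deficit alone gave few calls. In ovary 5 of the 104 fell and none rose, with 0.165% of all genes called lower and 0.069% higher. In stigma 3 fell and 1 rose, with 0.107% called lower and 0.0565% higher. The median log2 fold change was −0.25 in ovary and −0.30 in stigma, and 46 and 43 of the 104 had an unadjusted p under 0.05. Of all genes tested, 2625 of 33336 in ovary and 2869 of 33609 in stigma had such a p. For the 174 genes chosen under water deficit, a choice that favours a rise in this contrast, the medians were −0.098 and −0.095, with 4 lower in ovary, and 1 lower and 2 higher in stigma. These counts rested on single libraries. In ovary they went to 0 without control replicate 1 or 3 or without water-deficit replicate 2 or 3, and to 3 without water-deficit replicate 1. In stigma they went to 1 without any one control library or without water-deficit replicate 3, and to 2 without water-deficit replicate 1.

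Adding heat to water deficit lowered the genes again in a contrast that uses no control library. Under combined stress against water deficit 62 of the 104 fell and 2 rose in ovary, where 13% of all genes were called lower and 8.29% higher. In stigma 43 fell and 2 rose, where 11.2% of all genes were called lower and 5.44% higher. The median log2 fold changes were −0.57 and −0.48, against −0.02 and −0.04 for all genes tested. Without combined-stress replicate 2 the number called in stigma was 29 instead of 45. For comparison, of 41 genes that were high in ovary alone among the organs 2 fell and 3 rose in ovary, and of 56 that were high in stigma alone 5 fell and 2 rose in stigma. The change was positive for 21 and negative for 10 of the 41 in ovary, and for 18 and 23 of the 56 in stigma. The rest of each set had a change of exactly 0 and could not be called. Whether these sets differ from the 104 was not tested.

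Adding water deficit to heat moved fewer genes. Under combined stress against heat 6 of the 104 fell in ovary and none rose, with 0.567% of all genes called lower and 0.222% higher. In stigma 14 fell and 1 rose, with 0.696% called lower and 0.434% higher. The median log2 fold change was −0.10 in ovary and −0.28 in stigma. The stigma count of 15 was sensitive to the libraries used, falling to 9, 7 and 5 without heat replicate 1, 2 and 3 and to 8 and 7 without combined-stress replicate 1 and 2.

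The median change of the 104 in each single library showed the same order. Relative to the control mean of each gene, the median log2 difference in ovary was −0.70, −0.75 and −0.70 in the heat libraries and −0.80, −0.72 and −0.78 in the combined-stress libraries. In stigma it was −0.48, −0.41 and −0.34 under heat and −0.81, −1.03 and −0.59 under combined stress. The heat values of the organs did not overlap, the combined-stress values did, and the stigma combined-stress libraries spread the most. Under water deficit ovary had −0.21, −0.33 and −0.19 and stigma −0.23, −0.23 and −0.34.

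**Figure D2:**
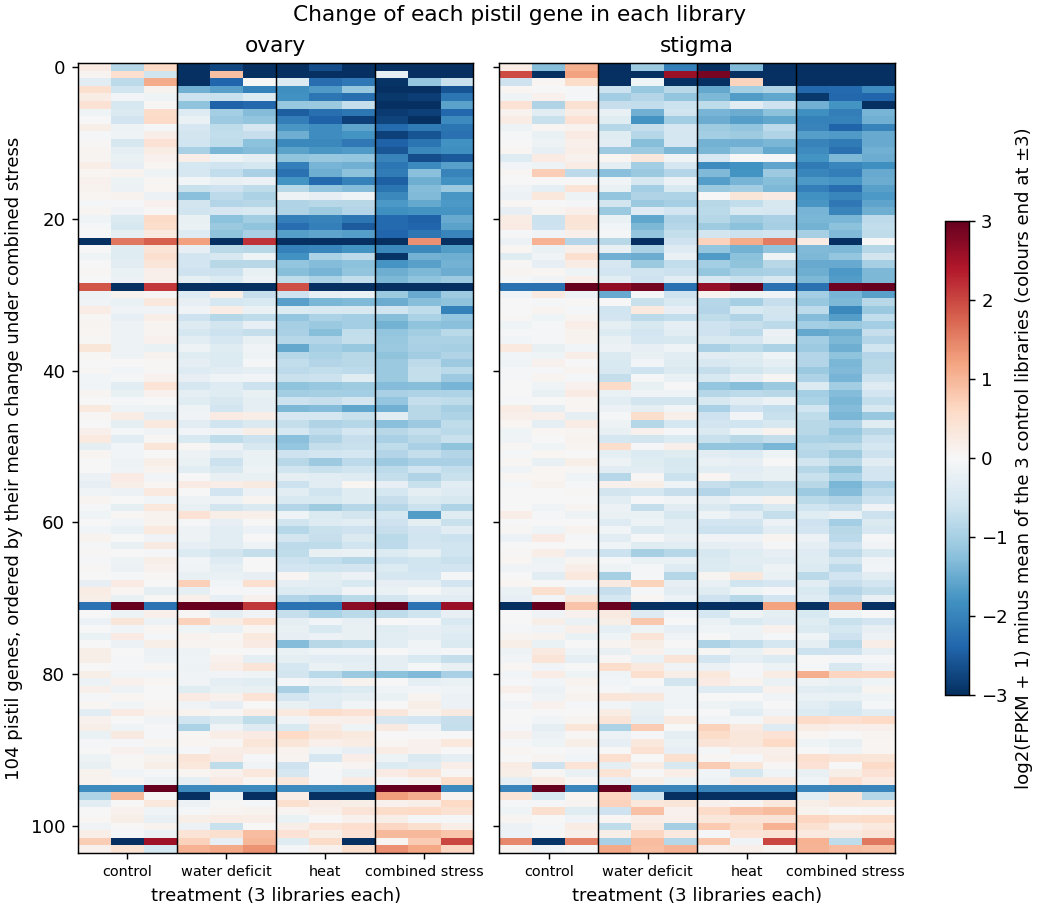
Log2(FPKM + 1) of each of the 104 genes minus the mean of its 3 control libraries, in the 12 ovary and 12 stigma libraries, with genes ordered by their mean change under combined stress. Blue (lower) fills the heat and combined-stress columns of ovary, is paler under heat in stigma, and the isolated rows that switch between dark blue and dark red are genes listed at 0 in some libraries.

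The share of anther genes in the stigma libraries was lower under combined stress than in control, while the heat libraries overlapped the controls. Genes that were high in anther alone among the control organs made up 2.79% ± 1.47 of the summed FPKM in control stigma. With water deficit their share was 3.34% ± 0.581, with heat 1.52% ± 0.629 and with both 0.865% ± 0.386. Control stigma replicate 1 held 4.47%, against 2.199% and 1.71% in replicates 2 and 3. In ovary the means ran from 0.231% to 0.650%. In the anther libraries themselves the share was 55.8% ± 3.42 in control and 55.6% ± 2.48 with water deficit. It was 50.7% ± 3.39 there with heat and 32.6% ± 5.58 with both. The part of these shares in the changes of the 104 genes was not tested.

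The difference between the organs was tested directly, as the ovary log2 fold change minus that of stigma in one fit of 24 libraries. Under heat against control none of the 104 passed, as against 3 of all 35167 genes tested (0.00853%). Without adjustment 28 of the 104 (26.9%) had a p under 0.05, against 7.82% of all genes, and 27 of these 28 were more negative in ovary. The difference was negative for 81 of the 104, with a median of −0.27 and quartiles of −0.47 and −0.08. The median of all genes tested was −0.05, and signs over all genes were not counted. Of the 174 genes chosen under water deficit, 132 had a negative difference, with a median of −0.25. Single genes thus missed the threshold while most leaned to a deeper fall in ovary.

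Under combined stress the median difference was nearer to 0. Against control it was 0.02, and the ovary change was the more negative in 48 of the 104. Of the 104, 2 passed (0.145% of all genes did), and 17 (16.3%) had an unadjusted p under 0.05, against 9.24% of all genes, and 12 of these 17 were more negative in ovary. Against water deficit the median difference was −0.08 and the ovary change was the more negative in 61 of the 104, while the 174 genes chosen in those water-deficit libraries had a median of 0.039 with the ovary change more negative in 76. Of the 104, 1 passed there (0.0313% of all genes did), and 15 had an unadjusted p under 0.05, against 8.01% of all genes. Of these 15 members, 11 were more negative in ovary. Against heat none passed, nor did any gene in the whole table (0%). There 80 of the 104 had the more negative change in stigma, with a median difference of 0.24 against 0.02 for all genes tested. An unadjusted p under 0.05 was found for 28 (6.44% of all genes had one), of which 22 were more negative in stigma. This contrast shares its heated libraries, with opposite sign, with that of heat against control. Water deficit against control gave no call for the difference in any gene (0%) and an unadjusted p under 0.05 for 5 of the 104 and for 2.9% of all genes.

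**Figure D3:**
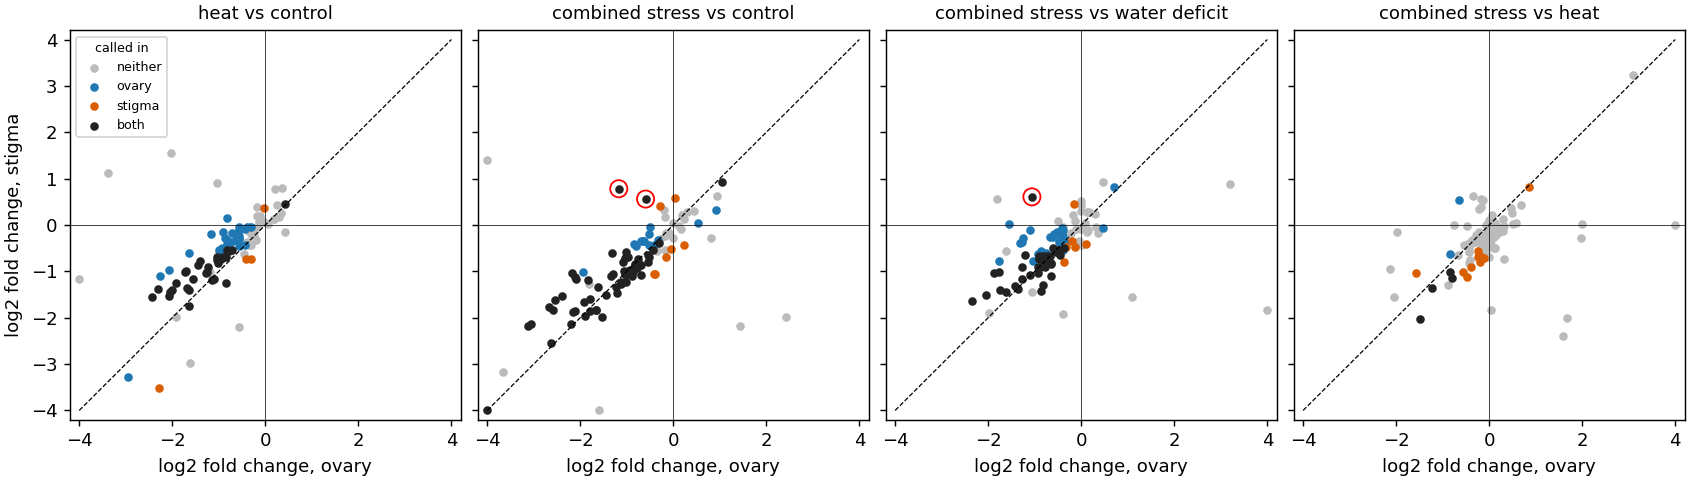
Log2 fold change in ovary (horizontal axis) and stigma (vertical axis) of the 104 genes in 4 contrasts, coloured by the organs in which the adjusted p was under 0.05, with values beyond 4 drawn at the edge. Red rings mark the genes whose organ difference passed the threshold, and under heat most points lie above the dashed line of equal change because the ovary value was the more negative.

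Across the 104 genes the ovary and stigma changes were correlated with a Pearson r of 0.55 under heat against control, 0.58 under combined stress against control and 0.35 under combined stress against water deficit (n = 104 genes, which are not independent replicates). The sign was the same in both organs for 91, 90 and 84 of the 104. These values include genes listed at 0 in some pistil libraries, and r without them was not computed. Among them, GLYMA_13G353600, named here after its values were seen, had an organ difference of 6.17 ± 2.77 (SE) for combined stress against water deficit. The level of a gene in control had little relation to its change. The Pearson r between log level and log2 fold change lay between −0.21 and 0.10 over the 5 contrasts and both organs. Nevertheless 30 of 38 genes at 100 FPKM or more in control ovary were called lower under combined stress against water deficit, compared with 32 of 66 below that level. In stigma the counts were 15 of 33 and 28 of 71. This difference by level was not tested.

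The most abundant gene of the set did not pass in any contrast. GLYMA_18G210900 had 3995, 3632 and 3971 FPKM in control ovary, 3318, 3069 and 3644 under heat and 3922, 4338 and 3409 under combined stress. In stigma it had 3175, 3711 and 3282 FPKM in control and 2672, 2456 and 3326 under combined stress. Heat replicates 1 and 2 in ovary and combined-stress replicates 1 and 2 in stigma lay below all controls, and the third library of each group lay among them. The second, GLYMA_09G278000, was called lower under heat in ovary and not in stigma. It had 2904, 2480.0 and 3709 FPKM in control ovary and 1635, 1436 and 1643 under heat, so that the groups did not overlap. The groups did not overlap in stigma either, with 3063, 2816 and 3193 FPKM in control and 2223, 1941 and 2253 under heat. The log2 fold change was −0.93 ± 0.14 (SE) in ovary (limma adjusted p = 0.00124) and −0.50 ± 0.16 in stigma (limma adjusted p = 0.0603), and the organ difference of −0.43 did not pass (limma adjusted p = 0.6655).

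Among genes called lower in both organs in the contrast of combined stress with water deficit, those with the deepest falls were GLYMA_05G034900 and GLYMA_16G212000. GLYMA_05G034900 had 57.4, 44.8 and 41.2 FPKM in ovary under water deficit and 11.6, 6.93 and 7.74 under combined stress. Stigma had 42.7, 52.3 and 38.4 FPKM under water deficit and 11.3, 15.7 and 14.1 under combined stress. All combined-stress libraries of both organs lay below all water-deficit libraries. The log2 fold changes were −2.34 ± 0.17 in ovary (limma adjusted p = 1.67e-05) and −1.63 ± 0.19 in stigma (limma adjusted p = 0.000598). Its response to heat alone looked different in the organs: ovary had 20.9, 22.0 and 21.7 FPKM under heat against 52.1, 42.8 and 54.3 in control, and stigma 28.6, 41.4 and 39.9 against 31.6, 49.1 and 45.4. The heat libraries were below all controls in ovary and overlapped them in stigma. The difference between organs under heat was −0.98 ± 0.27 and did not pass (limma adjusted p = 0.37).

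The levels of GLYMA_16G212000 differed between treatments. In ovary it had 30.7, 24.7 and 24.2 FPKM in control, 16.5, 16.2 and 19.6 under water deficit, 6.82, 5.09 and 4.70 under heat and 2.67, 2.85 and 5.10 under combined stress. In stigma it had 16.3, 19.5 and 17.3, then 8.11, 9.18 and 7.22, then 6.35, 4.85 and 5.33, and 1.5, 2.64 and 2.61 FPKM in the same order. Neighbouring groups in that order did not overlap in stigma, and in ovary only heat and combined stress overlapped. Against water deficit, combined stress gave log2 fold changes of −2.05 ± 0.19 in ovary and −1.51 ± 0.16 in stigma (limma adjusted p = 4.8e-05 and 0.000294). In ovary the changes from control to water deficit, −0.58 ± 0.19, and from heat to combined stress, −0.55 ± 0.19, did not pass (limma adjusted p = 0.374 and 0.217). In stigma they were −1.03 ± 0.16 and −1.02 ± 0.16 (limma adjusted p = 0.0327 and 0.01397), and the first of these calls was lost without any one control library, without water-deficit replicate 1 or 3, with a pseudocount of 0.1 and with no filter (adjusted p of up to 0.165). The second was lost without heat replicate 1 or 3 (adjusted p of up to 0.0603). Its group mean under combined stress was 3.54 FPKM in ovary and 2.25 in stigma, under the rule's minimum of 5 FPKM.

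GLYMA_04G179500 was called lower with reduced water and not with heat alone. In ovary it had 434, 453 and 372 FPKM in control, 174, 242 and 216 under water deficit, 374, 352 and 380.1 under heat and 109.5, 168 and 123 under combined stress. In stigma it had 211, 298 and 216 FPKM in control, 105, 126 and 124 under water deficit, 238, 307 and 282 under heat and 67.5, 60.7 and 71.9 under combined stress. The heat libraries overlapped the controls in both organs, and every library with reduced water lay below every library with full water. Heat against control gave −0.18 ± 0.15 in ovary and 0.20 ± 0.15 in stigma (limma adjusted p = 0.4575 and 0.385). Combined stress against heat gave −1.48 ± 0.15 in ovary and −2.03 ± 0.15 in stigma (limma adjusted p = 0.00187 and 9.98e-05). Water deficit against control gave −0.999 ± 0.15 in ovary and −1.01 ± 0.15 in stigma (limma adjusted p = 0.0239 and 0.0279). The ovary call under water deficit was lost without any one of the 6 libraries of that contrast, with an adjusted p of up to 0.1386. The stigma call was lost without any one control library, without water-deficit replicate 1 or 3 and with no filter on low values, with an adjusted p of up to 0.0824.

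The other gene called lower by water deficit in both organs was GLYMA_02G052700. It had 18.3, 13.96 and 20.4 FPKM in control ovary and 8.39, 6.15 and 6.51 under water deficit. The stigma values were 18.4, 14.8 and 20.6 FPKM in control and 7.84, 7.81 and 6.39 under water deficit. The groups did not overlap in either organ. The log2 fold changes were −1.21 ± 0.19 in ovary and −1.18 ± 0.19 in stigma (limma adjusted p = 0.028 and 0.0389). The ovary call was lost without control replicate 1 or 3 or water-deficit replicate 2 or 3 and with no filter. The stigma call was lost without any one of its 6 libraries, with a pseudocount of 0.1 and with no filter. The adjusted p reached 0.1475 in ovary and 0.176 in stigma.

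One gene rose with reduced water. GLYMA_19G133600 had 230.2, 204 and 214 FPKM in control stigma, 473, 407 and 435 under water deficit, 237, 241 and 229.9 under heat and 441, 407 and 395 under combined stress. In ovary it had 124, 150.4 and 78.1 FPKM in control, 235, 249 and 289.7 under water deficit, 109, 125 and 159.7 under heat and 295, 257 and 174 under combined stress. In both organs every library with reduced water lay above every library with full water. In stigma water deficit against control gave 1.02 ± 0.09 (limma adjusted p = 0.00263) and combined stress against heat 0.81 ± 0.09 (limma adjusted p = 0.0021). In ovary the same contrasts gave 1.17 ± 0.25 (limma adjusted p = 0.1325) and 0.86 ± 0.25 (limma adjusted p = 0.161), which did not pass. Combined stress against control passed in both, at 1.05 ± 0.25 in ovary and 0.94 ± 0.09 in stigma (limma adjusted p = 0.011 and 5.74e-05), and it was the only one of the 104 called higher in both organs in that contrast. The organ difference was 0.15 ± 0.27 under water deficit and did not pass (limma adjusted p = 1).

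Under heat against control the only gene called higher in both organs was GLYMA_08G270000, named here after its values were seen. It had 47.6, 66.2 and 52.3 FPKM in control ovary and 82.8, 70.6 and 67.9 under heat, and in stigma 52.4, 42.1 and 48.7 in control and 70.3, 60.4 and 64.4 under heat. The groups did not overlap in either organ. The log2 fold changes were 0.42 ± 0.12 in ovary and 0.44 ± 0.10 in stigma (limma adjusted p = 0.0305 and 0.0179). The ovary call was lost without control replicate 1 or 3 or heat replicate 1 or 2 (adjusted p of up to 0.119), and the stigma call without control replicate 2 or heat replicate 1 (up to 0.0719). Combined stress gave 54.6, 54.6 and 54.0 FPKM in ovary and 49.4, 47.9 and 50.7 in stigma, within the range of the controls.

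Of the 104, 2 were called in opposite directions in the organs, both under combined stress. The number of such genes in the whole table was not counted. GLYMA_09G202000 had 21.3, 17.7 and 17.9 FPKM in control ovary, 17.4, 17.8 and 17.1 under water deficit, 12.7, 10.3 and 8.22 under heat and 7.50, 7.01 and 9.16 under combined stress. Its stigma values were 12.7, 16.0 and 12.1 FPKM in control, 12.2, 19.4 and 15.3 under water deficit, 17.0, 12.9 and 16.0 under heat and 29.7, 21.6 and 21.4 under combined stress. The combined-stress libraries lay below all control and water-deficit libraries in ovary and above all of them in stigma. Against control the change was −1.17 ± 0.14 in ovary and 0.78 ± 0.18 in stigma (limma adjusted p = 0.000124 and 0.00839), a difference of −1.95 ± 0.24 (limma adjusted p = 0.00134). Against water deficit it was −1.06 ± 0.14 and 0.61 ± 0.18 (limma adjusted p = 0.000443 and 0.0379), a difference of −1.67 ± 0.24 (limma adjusted p = 0.00975). The stigma call against water deficit was lost without water-deficit replicate 1 or 3 and without combined-stress replicate 1 or 2, as well as with no filter, with an adjusted p of up to 0.1386. Both organ differences held whichever library was left out.

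GLYMA_19G013000 had 117, 106 and 99.5 FPKM in control ovary, 71.1, 79.0 and 62.5 under water deficit, 99.4, 118 and 118 under heat and 75.1, 71.2 and 66.0 under combined stress. In stigma it had 349.5, 324 and 364 FPKM in control, 449.9, 286 and 415 under water deficit, 325, 336 and 403 under heat and 511, 492 and 526 under combined stress. The ovary was low in both treatments with reduced water, and in stigma the combined-stress libraries were above all others. Combined stress against control gave −0.60 ± 0.11 in ovary and 0.56 ± 0.15 in stigma (limma adjusted p = 0.00178 and 0.0176), a difference of −1.16 ± 0.19 (limma adjusted p = 0.0108). The stigma call was lost without control replicate 2 or combined-stress replicate 3 (limma adjusted p of up to 0.0544), and the organ difference held whichever library was left out. This gene was also the one nearest to the 4-fold limit between the organs in control.

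**Figure D4:**
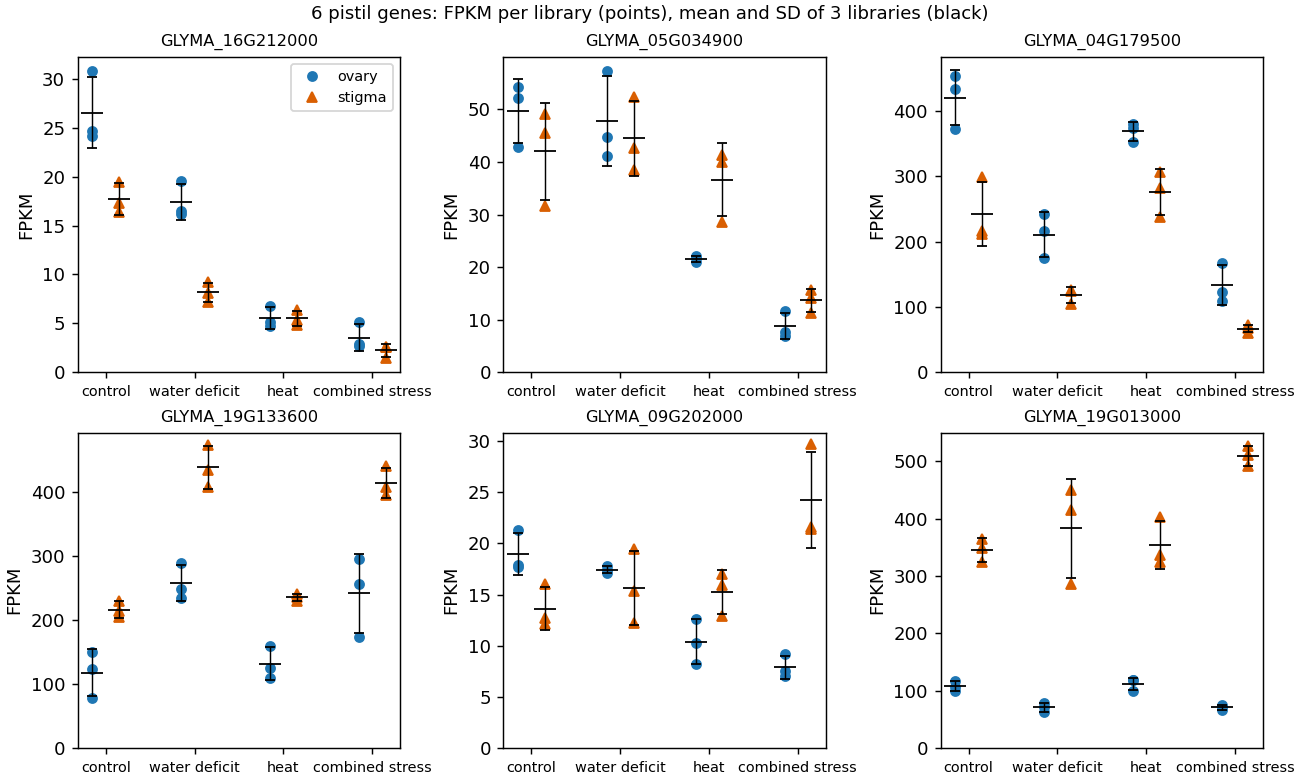
FPKM of 6 of the 104 genes in each ovary (circles) and stigma (triangles) library by treatment, with the mean and SD of 3 libraries in black. The upper row and GLYMA_19G133600 move the same way in both organs under combined stress, and the ovary and stigma points of GLYMA_09G202000 and GLYMA_19G013000 part there.

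A few genes had values of exactly 0 in some pistil libraries, which can be failed estimates. Of the 104, 9 were listed at 0 in at least 1 ovary or stigma library. GLYMA_08G068900 had 81.7, 37.8 and 105 FPKM in control ovary, 7.98, 9.46 and 4.74 under water deficit, 7.82, 10.1 and 6.63 under heat, and under combined stress it was listed at 0 in replicates 1 and 2 and at 7.79 in replicate 3. In stigma it had 32.1, 10.8 and 58.5 FPKM in control and was listed at 0, 2.63 and 0 under combined stress. All stressed ovary libraries lay below all controls. Leaving out the 9 genes lowered each count of called genes given above by at most 1.

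The 104 were chosen for meeting the rule in control, so in other libraries the number of them meeting it could not rise. Applied to the libraries of each treatment, the rule held for 86 of the 104 with water deficit, for 76 with heat and for 65 with both. Of all genes, 104 met it in control, and 174, 187 and 145 met it in these treatments. The condition most often lost under combined stress was the fold over anther (32 genes) or sepal (23 genes), 8 were under 5 FPKM in an organ, and 7 had organs 4-fold or more apart. The ovary mean was the higher in 70 of the 104 genes in control and in 69, 48 and 65 of the 104 under water deficit, heat and combined stress. As an example of parting levels under heat, GLYMA_11G153200 had 29.3, 34.5 and 25.2 FPKM in ovary and 133, 118 and 139.7 in stigma, from 142, 104 and 210.4 and 331, 182 and 360.3 in control. It was chosen after its values were seen, and its organ difference of −1.18 ± 0.49 did not pass (limma adjusted p = 0.59).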

How the data were processed

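RNA of 4 soybean flower organs under 4 treatments was sequenced, 3 libraries each. The authors deposited FPKM values per gene in 1 file per organ. Reads were aligned with HISAT2 2.2.1, per the submitters' processing notes; for the quantifier, genome build and annotation, nothing is stated (not given in the sources used here). The members, gene lists and tests were chosen with earlier results of these data known. Genes with a mean of at least 1 FPKM in at least 1 group were tested (33336 in ovary, 33609 in stigma, 35167 for both) with limma 3.58.1 (R 4.3.3; trend, robust) on log2(FPKM + 1). The 12 libraries of an organ entered one fit, and the organ difference used 24. The procedure was tested on simulated data, with 50 genes per fold changed under combined stress. Of those changed 1.5-fold, 46% were recovered in ovary, 28% in stigma and 20% for the organ difference. Of those changed 2-fold, 76%, 82% and 76% were recovered. Over all folds, 10 of 162 calls in ovary, 11 of 161 in stigma and 6 of 148 for the organ difference were false. All other genes were left unchanged there, unlike in the real data, so these rates do not carry over to the counts above. Depth in reads is unknown, so no counting intervals are given. Same-numbered libraries did not deviate together (correlations from −0.2275 to 0.1952), so numbers were not treated as pairs. Named genes were the 2 highest, the 2 with the largest organ differences past the threshold, the 2 with the largest shared changes in each direction, genes called in opposite directions, and the leading genes of the contrasts with few calls; exceptions are marked. Alternatives were a pseudocount of 0.1, no filter, median-of-ratios rescaling, other choices of members, a replicate block, and leaving out each library.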

Additional observations from a re-analysis of the deposited data

Results flagged for a closer look

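For 2 of the 104 genes the response to combined stress differed between ovary and stigma by a test of the difference itself. GLYMA_09G202000 had an ovary minus stigma log2 difference of −1.95 against control and −1.67 against water deficit, falling in all 3 combined-stress ovary libraries and rising in all 3 stigma libraries. GLYMA_19G013000 had −1.16 against control. The contrasts of GLYMA_09G202000 share the combined-stress libraries. What sets these genes apart was not tested.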

How the results depend on the processing

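No median change within an organ turned its direction under the alternatives run, nor did any of the gene changes followed through them. Not all changes of named genes were followed. Those of GLYMA_18G210900 were not, and its ovary change under combined stress against control was 0.003. The median organ difference for combined stress against water deficit was −0.08 in the 104 genes and 0.039 in the 174 chosen under water deficit. The number of genes meeting the rule depended on the setting: 174 when chosen in the water-deficit libraries, 241 with a pseudocount of 0.1 in the fold, 63 to 170 with one replicate number left out, and 184 on sepal control replicates 1 and 2 (a choice made after seeing the data). With those 184 genes the calls in ovary were 99 under heat, 120 under combined stress, 104 for combined stress against water deficit and 11 against heat, and in stigma 55, 110, 79 and 26. The shares of all genes called in these contrasts are those given above. With the 174 they were 108 and 10 in ovary for combined stress against control and heat, 98 and 23 in stigma, and 1 for the organ difference against control. Under water deficit the ovary count was 3 with no filter and 1 with a replicate block, and the stigma count was 2 with a pseudocount of 0.1, 1 with no filter and 2 with the block. A replicate block, pairing libraries by number, left 0 organ differences under combined stress against control and 0 against water deficit (GLYMA_09G202000 at limma adjusted p = 0.0534 and 0.111, GLYMA_19G013000 at 0.2955). It also ended the water-deficit calls of GLYMA_02G052700 in both organs and of GLYMA_16G212000 in stigma, and the stigma call of GLYMA_09G202000 against water deficit. A pseudocount of 0.1 gave 1 organ difference against heat, GLYMA_19G013000.

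Leaving out one library at a time gave 0 to 6 calls in ovary for water deficit, 55 to 59 for heat, 65 to 69 for combined stress, 45 to 59 for combined stress against water deficit and 4 to 7 against heat. In stigma the ranges were 1 to 3, 24 to 31, 53 to 67, 29 to 49 and 5 to 17. For the organ difference they were 0, 0, 2 to 3, 1 and 0. Median-of-ratios rescaling moved no count by more than 1.5 times. The unknown depth limits what can be said of genes near 0.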
